A study of Homo sapiens with 12 samples.

Results

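Transcripts of UNG and the 7 APOBEC3 genes were followed in OCI-Ly7 cells under an HDAC3 inhibitor and 5-azacitidine, together, singly or not at all. The 8 genes were taken by symbol from the 78892 genes of the deposited count table, and the rule itself uses no expression value. The families, however, were selected on earlier results of the same data, among them the measured fall of the UNG transcript with the inhibitor. The calls given here therefore describe these libraries and are not independent support for the choice. Of the 8 genes, 7 passed the filter on low counts and were tested, and APOBEC3A was not.

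OCI-Ly7 is an established line from a human diffuse large B-cell lymphoma, and the study asked how well the 2 drugs work jointly against that disease. Poly(A) RNA was sequenced from 12 libraries, 3 in each of 4 groups, all harvested on day 5. The combination group received 100 nM 5-azacitidine every day from day 0 to day 4 and 15 µM HDAC3 inhibitor on days 2 and 4. The inhibitor group and the 5-azacitidine group received that drug alone on the same schedule, and the vehicle group received neither. Which compound served as inhibitor is not given in the sources used here. Whether the 3 libraries per group stem from separate cultures is not stated either, so the p-values reflect the variation among these libraries alone, possibly technical, and all samples are of 1 cell line.

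APOBEC3 enzymes remove the amino group of cytosine in single-stranded DNA, which turns it into uracil. They restrict retroviruses and retrotransposons, are encoded side by side on chromosome 22, and can also mutate the DNA of the cell itself. UNG, uracil-DNA glycosylase, cuts uracil out of DNA and so opens base excision repair, and in germinal-centre B cells, from which this kind of lymphoma derives, uracil handling takes part in antibody diversification. HDAC3 is a histone deacetylase of co-repressor complexes, while 5-azacitidine, taken up into nucleic acids in place of cytidine, depletes DNA methyltransferases.

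Promoter sequences in the RefSeq tables (GRCh38.p14) were matched for UNG, with a pair of start sites, and for APOBEC3H. The other APOBEC3 genes, APOBEC3B among them, had no entry there and are not shown. The stretches before the first annotated exon are shown for the first UNG start and for APOBEC3H. With the inhibitor UNG fell and APOBEC3H rose. Capitals mark each CG dinucleotide, the letters at which mammalian DNA is methylated and whose methylation 5-azacitidine reduces. The UNG stretch covers chr12:109097347-109097573 and the APOBEC3H stretch chr22:39096994-39097223, both on the plus strand.
UNG: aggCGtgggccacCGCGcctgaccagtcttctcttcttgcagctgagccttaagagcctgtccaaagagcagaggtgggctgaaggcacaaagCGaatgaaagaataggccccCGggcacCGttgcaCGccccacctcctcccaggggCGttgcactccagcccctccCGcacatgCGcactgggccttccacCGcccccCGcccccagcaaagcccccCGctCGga
APOBEC3H: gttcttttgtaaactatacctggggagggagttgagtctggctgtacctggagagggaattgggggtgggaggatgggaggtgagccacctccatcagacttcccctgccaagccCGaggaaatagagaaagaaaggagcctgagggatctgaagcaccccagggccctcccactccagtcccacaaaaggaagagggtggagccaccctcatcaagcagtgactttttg
The UNG stretch of 227 bases held 14 CG dinucleotides and the APOBEC3H stretch of 230 bases held 1. Over the full 250 bases before the start, the first UNG start held 18, more than 63.2% of the 35116 promoters of the table, the second held 24, more than 76.3%, and APOBEC3H held 1, more than 6.06% of them. Methylation was not measured. The windows of 250 bases were searched on both strands for TTTCCCGC and TTTGGCGC, letters bound by E2F factors, for an interferon-stimulated response element (GAAA, any 2 bases, GAAA), for a kappa-B site (GGGA, any 2 bases, TTCC), and for TATAAA and CCAAT. The first UNG window held none of these letters, the second held CCAAT at 3 places, and the APOBEC3H window held CCAAT at 1 place on the minus strand. Among all promoters of the table, 32.0% held CCAAT, 1.39% TTTCCCGC, 0.55% TTTGGCGC, 3.02% the interferon element, 1.40% the kappa-B letters and 10.7% TATAAA.

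UNG (ENSG00000076248) lies at chr12:109097597-109126725 and the cluster at chr22:38952741-39104067, all on the plus strand of GRCh38. In the cluster APOBEC3A (ENSG00000128383) comes first, followed by APOBEC3B (ENSG00000179750), APOBEC3C (ENSG00000244509), APOBEC3D (ENSG00000243811), APOBEC3F (ENSG00000128394), APOBEC3G (ENSG00000239713) and APOBEC3H (ENSG00000100298). The cluster arose by duplication, so reads can be shared, and multi-mapping reads were counted as fractions. In GENCODE 29, 26.6% of the windows of 100 bases in APOBEC3B transcripts also occurred in another gene. Of all APOBEC3B windows, 18.8% occurred in APOBEC3A. The share that occurred in another gene was 13.3% for APOBEC3F and 5.05% for APOBEC3G, and 0% for APOBEC3C, APOBEC3H and UNG. Counts of APOBEC3B, APOBEC3F and APOBEC3G had a fractional part in all 12 libraries, those of APOBEC3C in 6, that of APOBEC3H in 1 and those of UNG in none. Reads that overlap more than 1 gene were left out of the count, which bears most on APOBEC3D. Of its exonic bases, 83.2% lie in exons of ENSG00000284554, an annotated protein-coding gene that spans APOBEC3C and APOBEC3D, and that gene itself had 0 counts in every library. Reads in those bases do not enter the count of APOBEC3D. For APOBEC3B, 12.9% of the exonic bases lie in the antisense gene APOBEC3B-AS1, which had 3 counts over the combination libraries, 3 over the inhibitor libraries, 0 over the 5-azacitidine libraries and 1 over the vehicle libraries. The levels of members with shared reads are uncertain for that reason.

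Library totals ran from 35947872 to 36337086 counts. All 8 B-cell markers looked for were detected in every group, with MS4A1, which encodes CD20, at a mean of 872 CPM in vehicle (CPM, the read count per library size scaled by TMM factors). Combination replicate 3 and 5-azacitidine replicate 1 had the highest mitochondrial share of their groups, 15.3% and 13.8%, and 5-azacitidine replicate 1 stood apart from its fellow replicates in a chi-square test over genes, at 29.3 and 26.3 per degree of freedom, against 4.24 between the other pair. By the same measure the combination replicates differed from each other by 10.2 to 16.7. The range was 5.14 to 7.08 for vehicle and 3.57 to 4.94 for the inhibitor. Results that rest on combination replicate 3 or 5-azacitidine replicate 1 are given without them as well. Each gene was tested with the edgeR quasi-likelihood test over all 12 libraries and called at an adjusted p under 0.05 (Benjamini-Hochberg over 17869 genes). This applies to every adjusted p below unless another setting or a left-out library is named. Those values come from the test and the set of genes of that run.

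UNG was lower wherever the inhibitor was given. It had 94.1, 97.1 and 102 CPM in the combination libraries, 106, 110 and 110 CPM in the inhibitor libraries, 177, 165 and 164 CPM in the 5-azacitidine libraries and 176, 172 and 177 CPM in the vehicle libraries. All 6 libraries with the inhibitor lay below all 6 without it. In bulk libraries such as these, fewer cells that express a gene and less of its RNA per cell cannot be told apart. The mitochondrial share of counts was also higher in the groups given the inhibitor, at 13.6% ± 1.51 in the combination, 12.52% ± 0.452 in the inhibitor, 11.3% ± 2.12 in 5-azacitidine and 10.03% ± 0.48 in vehicle (SD, n = 3 each), and its part in the changes of UNG and the APOBEC3 genes was not tested. The gene has separate starts for a mitochondrial and a nuclear form of the enzyme, which gene counts add together. The inhibitor against vehicle gave a log2 fold change of −0.69 ± 0.05 (SE), or 0.621 of the vehicle level, a value known when the genes were picked and given here as a description. With the inhibitor added to 5-azacitidine UNG fell by 0.79 ± 0.05 on the log2 scale, and the combination against vehicle gave −0.84 ± 0.05 (adjusted p = 7.42e-13 and 1.4e-13).

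5-azacitidine alone did not change UNG past the test, at −0.05 with a 95% interval of −0.16 to 0.05 (adjusted p = 0.595). Its addition to the inhibitor gave −0.15 ± 0.05, and the combination libraries all lay below the inhibitor libraries, but the call was missed (adjusted p = 0.0668). The adjusted p ran from 0.0197 to 0.117 over alternative settings and from 0.0393 to 0.23 with 1 library left out, passing without 5-azacitidine replicate 1 (0.0393), without both libraries of highest mitochondrial share (0.0293), with scaling by library totals (0.04), with a filter of 5 CPM in 3 or more libraries (0.0459) and in DESeq2 (0.0197).

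**Figure D1:**
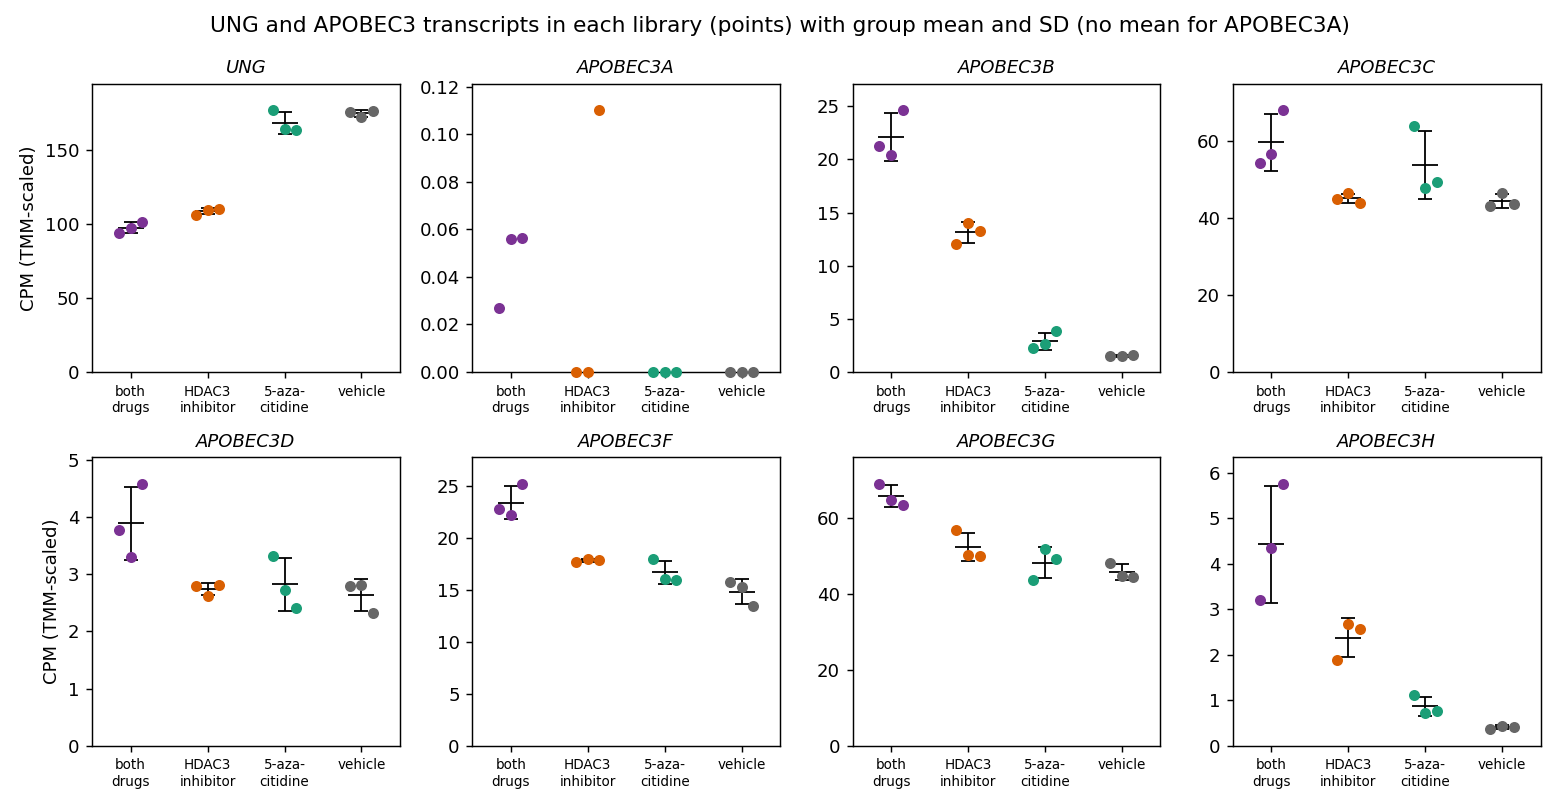
Level of each gene in CPM (vertical axis, linear from 0, own scale per panel) in the 4 groups, with a point per library and, except for APOBEC3A, the mean and SD of the 3 libraries. UNG is lower in the 6 libraries with the inhibitor, and APOBEC3B and APOBEC3H are highest in the combination.

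APOBEC3B, a nuclear deaminase linked to cytosine mutations in several human cancers, rose most among the members. It had 21.2, 20.4 and 24.7 CPM with the combination and 12.02, 14.04 and 13.3 CPM with the inhibitor. It had 2.29, 2.62 and 3.82 CPM with 5-azacitidine and 1.49, 1.46 and 1.64 CPM with vehicle. The 4 groups did not overlap, and they stood in the order combination, inhibitor, 5-azacitidine and vehicle. Against vehicle the transcript was 14.4-fold higher with the combination (log2 3.85 ± 0.14 SE, adjusted p = 3.88e-18), 8.54-fold higher with the inhibitor (3.09 ± 0.15, adjusted p = 1.31e-15) and 1.90-fold higher with 5-azacitidine (0.93 ± 0.18, adjusted p = 0.000899). The combination was 1.68-fold above the inhibitor alone (0.75 ± 0.11, adjusted p = 6.76e-05) and 7.56-fold above 5-azacitidine alone (adjusted p = 2.4e-16). These 5 calls held in every alternative run and without any single library. APOBEC3A, which shares the most windows with APOBEC3B, had at most 4 counts in any library.

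APOBEC3H, a deaminase with a single catalytic domain that restricts retroviruses, showed the same order of means at a lower level. It had 3.20, 4.34 and 5.76 CPM with the combination, 1.88, 2.67 and 2.56 CPM with the inhibitor, 1.11, 0.71 and 0.769 CPM with 5-azacitidine and 0.359, 0.437 and 0.424 CPM with vehicle. Here too no group overlapped the next, though the lowest combination library (3.20) and the highest inhibitor library (2.67) were close. The combination was 10.8-fold and the inhibitor 5.80-fold above vehicle (log2 3.44 ± 0.26, adjusted p = 1.08e-11, and 2.54 ± 0.28, adjusted p = 1.79e-08). The vehicle libraries held only 44 counts of APOBEC3H together, which limits the precision of these ratios. The combination was 1.87-fold above the inhibitor (0.90 ± 0.20, adjusted p = 0.00494), a call that ended without combination replicate 3 (0.67, adjusted p = 0.0671). The adjusted p of that comparison was otherwise at most 0.049 over the alternatives that kept the gene in the test.

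With 5-azacitidine alone APOBEC3H was 2.103-fold above vehicle (1.07 ± 0.32, adjusted p = 0.0342). This call was lost without 5-azacitidine replicate 1 (0.85, adjusted p = 0.152) or 3 (adjusted p = 0.0525), without vehicle replicate 1 (0.122), 2 (0.0752) or 3 (0.0827), and without both libraries of highest mitochondrial share (0.11), while the change stayed between 0.85 and 1.21 on the log2 scale.

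APOBEC3A, an enzyme known from monocytes and from cells treated with interferon, was at or near 0. It had 1, 2 and 2 counts in the combination libraries, 0, 0 and 4 counts in the inhibitor libraries and 0 counts in each 5-azacitidine and vehicle library. Of its exonic bases, 29.1% lie in exons of a gene on the minus strand, and reads there are not counted. A count of 0 allows up to 3 counts per library, or 0.0828 to 0.0835 CPM in the 5-azacitidine libraries and 0.0828 to 0.0832 CPM in the vehicle libraries, by counting error alone. PCR copies, which are not independent molecules, would widen that limit. The combination values lie under it, as do all but 1 of the inhibitor values, but the limit is for a single library. Without the filter on low counts, edgeR gave 3.54 ± 2.21 for the inhibitor and 3.84 ± 2.21 for the combination against vehicle. Neither was called (adjusted p = 0.301 and 0.222), so a change was not shown.

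The other members with a single or a double deaminase domain moved less. APOBEC3G, the double-domain enzyme that restricts HIV lacking its Vif protein, had 69.1, 64.7 and 63.5 CPM with the combination, 56.7, 50.3 and 50.04 CPM with the inhibitor, 43.8, 51.8 and 49.2 CPM with 5-azacitidine and 48.1, 44.8 and 44.4 CPM with vehicle. The combination libraries lay above all others, and the 5-azacitidine libraries overlapped those of vehicle. APOBEC3F, a double-domain relative that also restricts such HIV, had 22.7, 22.2 and 25.2 CPM with the combination, 17.7, 17.96 and 17.8 CPM with the inhibitor, 17.9, 16.0 and 16.0 CPM with 5-azacitidine and 15.7, 15.3 and 13.4 CPM with vehicle. Again the combination libraries lay above all others.

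With the combination against vehicle APOBEC3G rose by 0.52 ± 0.07 and APOBEC3F by 0.66 ± 0.08 on the log2 scale (adjusted p = 1.97e-07 and 1.02e-07). Against the inhibitor alone the rises were 0.33 ± 0.07 and 0.39 ± 0.08 (adjusted p = 0.00259 and 0.00278). With the inhibitor against vehicle they were small, 0.19 ± 0.07 for APOBEC3G and 0.27 ± 0.08 for APOBEC3F (adjusted p = 0.018 and 0.00845). Both of these calls ended without vehicle replicate 3 (adjusted p = 0.0739 and 0.0738), and that of APOBEC3G also without vehicle replicate 2 (0.0689) or inhibitor replicate 1 (0.13, adjusted p = 0.155). With 5-azacitidine against vehicle APOBEC3G had 0.08, 95% interval −0.06 to 0.22, and APOBEC3F 0.17, 95% interval −0.00 to 0.34 (adjusted p = 0.564 and 0.231).

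APOBEC3C, a single-domain member, had 54.2, 56.8 and 68.2 CPM with the combination, 44.9, 46.5 and 44.0 CPM with the inhibitor, 64.0, 48.0 and 49.4 CPM with 5-azacitidine and 43.1, 46.5 and 43.6 CPM with vehicle. The inhibitor libraries overlapped the vehicle libraries, at a log2 fold change of 0.02 with a 95% interval of −0.16 to 0.20 (adjusted p = 0.844). The combination against the inhibitor gave a rise of 0.40 ± 0.09 (adjusted p = 0.00391), which held without each library in turn (0.30 to 0.47, adjusted p up to 0.0439). 5-azacitidine against vehicle was called at 0.28 ± 0.09 (adjusted p = 0.0432), with 5-azacitidine replicate 1 far above its fellow replicates at 64.0 CPM. Without that library the change was 0.14 (adjusted p = 0.33), and without both libraries of highest mitochondrial share it was 0.14 (adjusted p = 0.201). The call was also lost without any 1 vehicle library (adjusted p = 0.0658 to 0.15) or any 1 inhibitor library (adjusted p = 0.0556 to 0.0571). The combination against 5-azacitidine was not called for APOBEC3C (0.15, 95% interval −0.02 to 0.33, adjusted p = 0.141) and was called without 5-azacitidine replicate 1 (0.30, adjusted p = 0.00162), without both libraries of highest mitochondrial share (0.20, adjusted p = 0.0161) and with the filter of 5 CPM (0.22, adjusted p = 0.0339).

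APOBEC3D, a double-domain member, had 3.77, 3.31 and 4.58 CPM with the combination, 2.80, 2.62 and 2.81 CPM with the inhibitor, 3.32, 2.73 and 2.42 CPM with 5-azacitidine and 2.79, 2.81 and 2.32 CPM with vehicle. The combination rose above vehicle by 0.56 ± 0.16 (adjusted p = 0.00399). Neither drug alone was called, with 0.05 (95% interval −0.29 to 0.39, adjusted p = 0.812) for the inhibitor and 0.09 (−0.25 to 0.43, adjusted p = 0.81) for 5-azacitidine. The combination against 5-azacitidine was called (0.46 ± 0.16, adjusted p = 0.0151) with overlapping libraries, and that call ended without combination replicate 3 (0.33, adjusted p = 0.117) or 5-azacitidine replicate 3 (0.36, adjusted p = 0.0879). The combination against the inhibitor gave 0.50 ± 0.16 with no overlap and missed the test (adjusted p = 0.0521), passing it without combination replicate 2 (0.0189) or 5-azacitidine replicate 1 (0.0431), within a range of 0.0189 to 0.257 over single libraries left out.

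**Figure D2:**
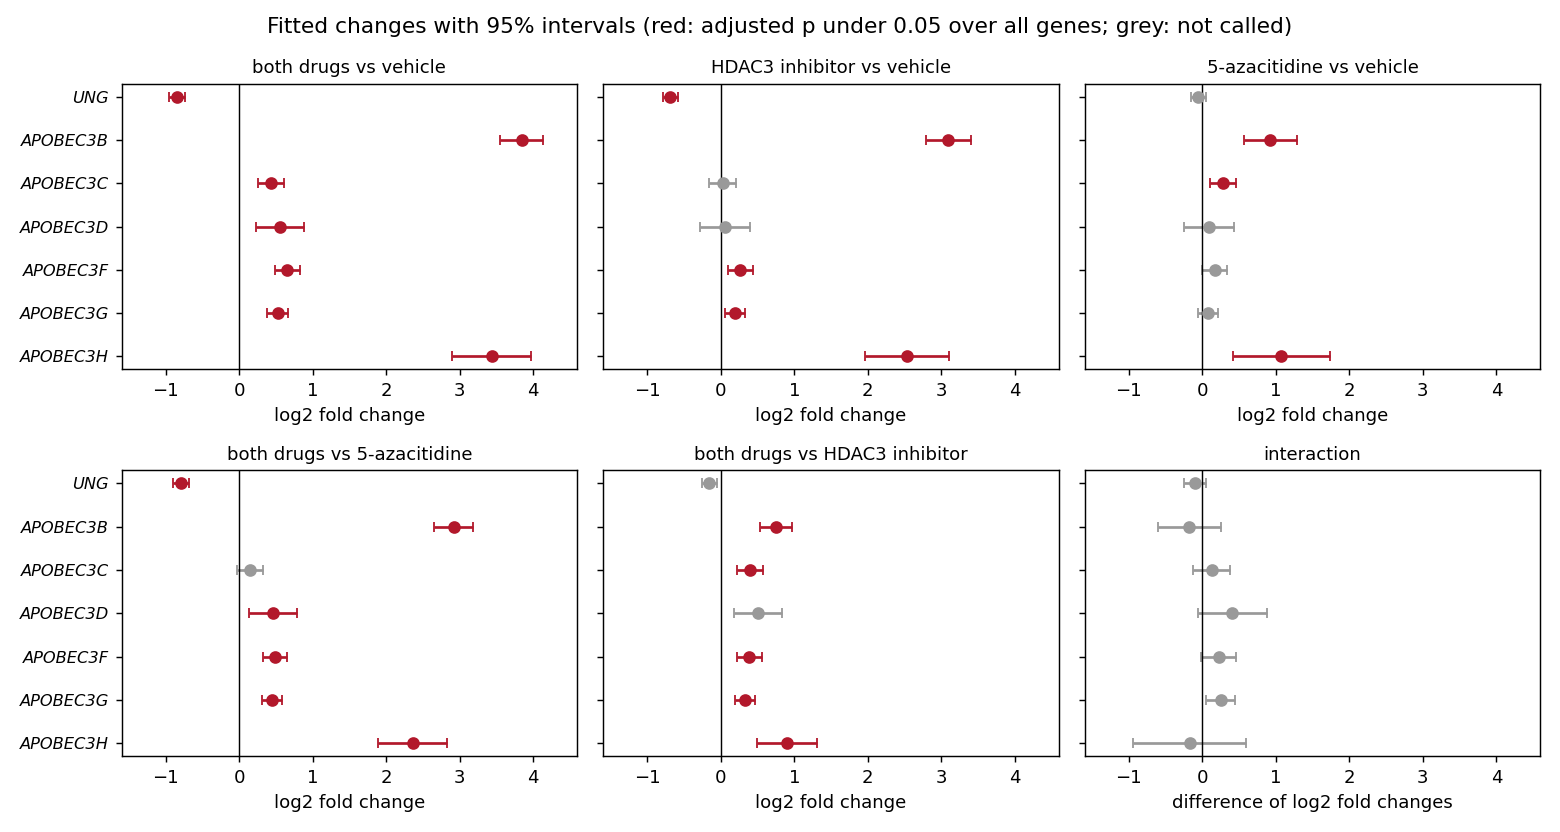
Fitted log2 fold change (horizontal axis) with its 95% interval for the 7 tested members in each of the 5 comparisons and the interaction; red points were called at an adjusted p under 0.05 over all genes. APOBEC3B and APOBEC3H stand far to the right in the comparisons that add the inhibitor, UNG stands to the left, and no interaction was called.

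Counted over the tested members, the combination against vehicle called 7 of 7, 6 higher and UNG lower, where 57.1% of all genes tested were called (29.6% higher and 27.5% lower). The inhibitor against vehicle called 5 of 7, 4 higher and UNG lower, where the background was 51.3% (26.4% higher and 24.9% lower). Shares of that size are common among all genes in this comparison and are no result about the members. Without vehicle replicate 3 the inhibitor called 3 of 7. 5-azacitidine against vehicle called 3 of 7, all higher, where 9.06% of all genes were called (4.31% higher, 4.75% lower), but only APOBEC3B was called without 5-azacitidine replicate 1, without any 1 vehicle library, or without both libraries of highest mitochondrial share. The combination against 5-azacitidine called 6 of 7, 5 higher and UNG lower, where 53.8% of genes were called (28.7% higher and 25.1% lower).

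The combination against the inhibitor called 5 of 7, all of them APOBEC3 genes and all higher, where 7.34% of all genes tested were called and 4.51% were called higher, 2.83% lower. In that comparison the 6 tested APOBEC3 genes were higher in every combination library than in any inhibitor library, which 14.8% of all genes were. The median log2 fold change of the 7 members was 0.40 there, against 0.01 over all genes tested. The comparisons share libraries (those of the combination enter 3 of them, as do those of vehicle), so they are not separate evidence of the members' direction, and genes of a duplicated cluster that share reads are not independent of each other. Combination replicate 3 had the highest level of its group for APOBEC3B, APOBEC3C, APOBEC3D, APOBEC3F, APOBEC3H and UNG and the lowest for APOBEC3G.

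The interaction asks whether the 5-azacitidine effect on cells with the inhibitor differs from its effect on cells without it, on the log2 scale. The edgeR quasi-likelihood test called 0 of the 7 members, DESeq2 called 0 with 1 member given no adjusted p, and 1 member, APOBEC3G, had an unadjusted p under 0.05 (0.25 ± 0.10, adjusted p = 0.242); over all genes 0.716% were called. For APOBEC3B the interaction was −0.18 with a 95% interval of −0.60 to 0.25 (adjusted p = 0.787), so its 1.68-fold rise on top of the inhibitor was not shown to differ from its 1.90-fold rise on top of vehicle. The estimates for APOBEC3D (0.41, −0.06 to 0.88), APOBEC3F (0.22, −0.01 to 0.46), APOBEC3C (0.13, −0.12 to 0.38), UNG (−0.10, −0.25 to 0.05) and APOBEC3H (−0.17, −0.94 to 0.59) have intervals that include 0.

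Per exonic length, APOBEC3C was the main APOBEC3 transcript in every group. RPKM divides CPM by exonic length in kilobases, including bases shared with another gene, from which no read is counted. These are 83.2% of APOBEC3D, 29.1% of APOBEC3A, 12.9% of APOBEC3B, 1.73% of APOBEC3F and 0.643% of APOBEC3C. The RPKM of APOBEC3D is therefore far too low to be set against other members. It enters the sum and the shares at that low value. The summed RPKM of the 7 genes was 56.1 ± 5.04 with the combination, 40.1 ± 0.717 with the inhibitor, 35.9 ± 2.90 with 5-azacitidine and 30.3 ± 0.819 with vehicle (SD, n = 3 each). APOBEC3C made up 40.2% ± 1.47 of that sum with the combination, 42.5% ± 0.444 with the inhibitor, 56.5% ± 4.56 with 5-azacitidine and 55.4% ± 1.61 with vehicle. APOBEC3B made up 20.8% ± 0.512 with the combination, 17.2% ± 1.16 with the inhibitor, 4.33% ± 1.40 with 5-azacitidine and 2.66% ± 0.236 with vehicle. APOBEC3G had 22.0% ± 2.63, 24.3% ± 1.94, 25.3% ± 4.00 and 28.1% ± 1.29 in the same groups. APOBEC3B and APOBEC3G differed by less than the spread between replicates in the combination, at 11.7 ± 1.19 and 12.2 ± 0.541 RPKM, while in vehicle they were at 0.806 ± 0.0492 and 8.51 ± 0.383 RPKM. In combination replicate 3 APOBEC3B was the higher of the pair by RPKM. By CPM the combination means were 22.1 for APOBEC3B and 65.8 for APOBEC3G. In vehicle the order of the tested members, APOBEC3D left out, was UNG (33.2 ± 0.445 RPKM), APOBEC3C (16.8 ± 0.681), APOBEC3G, APOBEC3F (2.84 ± 0.236), APOBEC3B and APOBEC3H (0.325 ± 0.0332), and neighbours in it differed by more than their SDs. In the combination APOBEC3C (22.6 ± 2.81 RPKM) and UNG (18.5 ± 0.729 RPKM) had changed places, by a mean difference wider than the SD of either. By CPM, UNG remained above APOBEC3C there (97.7 against 59.7).

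**Figure D3:**
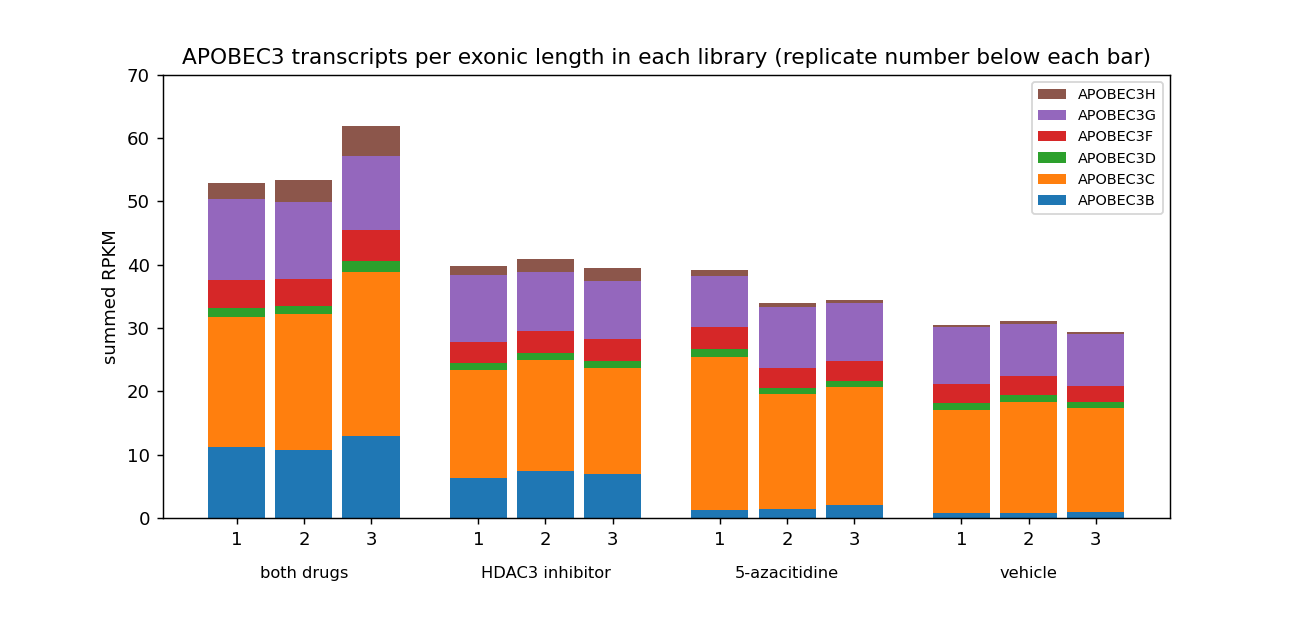
Summed RPKM of the APOBEC3 genes (vertical axis, linear from 0) in each of the 12 libraries, split by gene; APOBEC3A is left out because it had at most 4 counts, and APOBEC3D is understated because 83.2% of its exonic bases cannot be counted. The APOBEC3B block at the base of each bar is tallest in the combination libraries (marked both drugs) and low in the 5-azacitidine and vehicle libraries.

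The neighbours of the cluster changed by far less than APOBEC3B and APOBEC3H. Of the other protein-coding genes within 150 kb, CBX6 and CBX7, which encode subunits of Polycomb repressive complexes, were tested, while NPTXR and PDGFB were too low. ENSG00000284554 had 0 counts and was not tested. Reads in the exonic bases it shares with APOBEC3C and APOBEC3D are left out, so its level is not known. CBX7, 16.1 kb beyond the cluster on the side of APOBEC3H, averaged 10.2 CPM with the combination, 9.54 CPM with the inhibitor, 7.93 CPM with 5-azacitidine and 8.71 CPM with vehicle. Its changes against vehicle were 0.23, 0.13 and −0.14 (adjusted p = 0.0642, 0.313 and 0.51 for the combination, the inhibitor and 5-azacitidine). CBX6 had 0.13 with the combination, a called rise (adjusted p = 0.0393), 0.10 with the inhibitor (adjusted p = 0.108) and −0.15 with 5-azacitidine (adjusted p = 0.076). Against 5-azacitidine alone the combination raised both, CBX7 by 0.37 ± 0.11 and CBX6 by 0.28 ± 0.05 (adjusted p = 0.00474 and 6.61e-05), where APOBEC3B rose by 2.92. Within the cluster, the genes of largest rise, APOBEC3B and APOBEC3H, do not adjoin: APOBEC3C, APOBEC3D, APOBEC3F and APOBEC3G lie between them.

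Around UNG, ALKBH2 fell as well. ALKBH2, which encodes a DNA dioxygenase that reverses base methylation damage and starts on the opposite strand before UNG, averaged 83.1 CPM with the combination, 80.6 CPM with the inhibitor, 112 CPM with 5-azacitidine and 114 CPM with vehicle. It fell by 0.50 ± 0.06 on the log2 scale with the inhibitor (adjusted p = 6.93e-08) and by 0.45 ± 0.06 with the combination (adjusted p = 2.16e-07). USP30, a mitochondrial deubiquitinase gene, had −0.10 with the inhibitor (adjusted p = 0.261) and fell by 0.19 with the combination (adjusted p = 0.0237). ACACB, which encodes an acetyl-CoA carboxylase and overlaps the span of UNG, had −0.03 and 0.02 in these comparisons (adjusted p = 0.786 and 0.864). SVOP, further away and at most 0.693 CPM in any library, rose with the inhibitor and with the combination (adjusted p = 9.83e-05 and 0.000125), at 0.389 ± 0.0618 CPM in the combination, 0.424 ± 0.237 CPM in the inhibitor, 0 CPM in 5-azacitidine and 0.0184 ± 0.0319 CPM in vehicle, too low for a fold change.

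**Figure D4:**
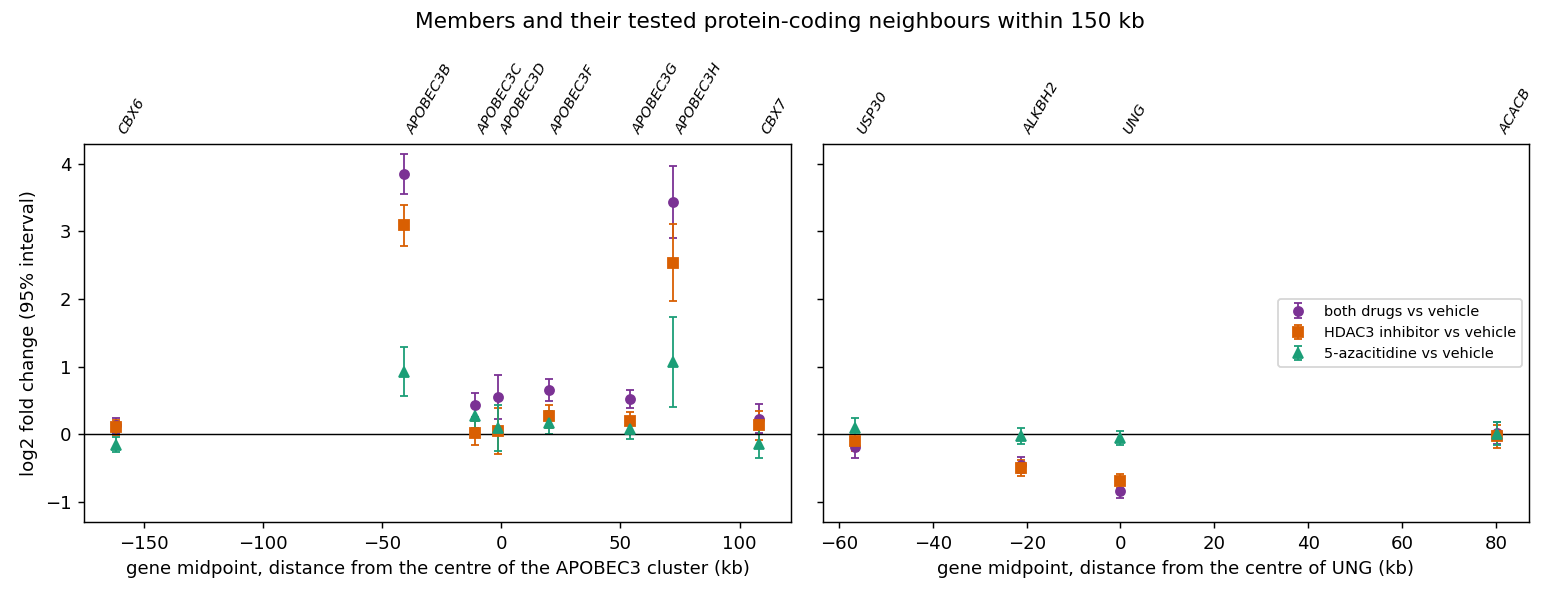
Log2 fold change against vehicle with its 95% interval (vertical axis) of the members and of the tested protein-coding genes within 150 kb, placed by the distance of each gene's midpoint from the centre of the cluster or of UNG (horizontal axis, kb); SVOP, which was called higher with the inhibitor and with the combination but had at most 0.693 CPM, is left out. CBX6 and CBX7 on either side of the cluster lie between −0.15 and 0.23, while ALKBH2 lies below 0 beside UNG.

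The other genes of uracil repair were mixed. Beyond the 3 genes of smallest adjusted p in each list with the inhibitor, those named below were chosen after their values were seen. Of 22 further base excision repair genes, all tested, 3 rose and 10 fell with the inhibitor against vehicle, with a median of −0.13 against 0.00 over all genes, where 26.4% of all genes rose and 24.9% fell. The counts with the inhibitor below are to be read against the same shares. NEIL2, a glycosylase for oxidised bases, rose by 1.83 ± 0.12 (9.84 against 2.77 CPM, adjusted p = 1.11e-12), and SMUG1, a further uracil glycosylase, rose by 0.48 ± 0.07 (34.9 against 25.0 CPM, adjusted p = 4.65e-06). LIG3, which seals the repaired strand, fell by 0.55 ± 0.06 (adjusted p = 1.08e-08), and MBD4, a glycosylase for uracil and thymine opposite guanine, fell by 0.44 ± 0.06 (adjusted p = 2.88e-07). TDG, which acts on the same mismatches, fell by 0.20 ± 0.05. None of the 22 was called with 5-azacitidine alone or between the combination and the inhibitor by edgeR, where 9.06% and 7.34% of all genes were called.

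Genes of mismatch repair and translesion synthesis, the other route by which uracil is handled in B cells, fell in 8 of 15 and rose in 1 with the inhibitor (median −0.20), where 51.3% of all genes were called. MSH6, a mismatch recognition subunit, fell by 0.48 ± 0.05, POLH, a translesion polymerase, by 0.52 ± 0.07, and RAD18, which directs such polymerases to stalled forks, by 0.38 ± 0.06. With the combination 11 of 15 fell and none rose, where 27.5% of all genes fell and 29.6% rose. Between the combination and the inhibitor 4 of 15 fell, among them REV3L (−0.40) and RAD18 (−0.24), and none rose, where 2.83% of all genes fell, in the same comparison in which 5 APOBEC3 genes rose.

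Genes that keep uracil out of DNA or supply thymidylate fell in 8 of 12 and rose in 2 with the inhibitor (median −0.23), where 24.9% of all genes fell and 26.4% rose. SAMHD1, which breaks down deoxynucleotides and restricts retroviruses, rose by 0.45 ± 0.06 and TK1, a thymidine kinase, by 0.49 ± 0.06, while TYMS, thymidylate synthase, fell by 0.51 ± 0.06. DUT, which removes dUTP, was not called (−0.09, adjusted p = 0.142). Of 24 genes of the G1 to S transition and S phase, when UNG is known to be expressed most, 14 fell and none rose with the inhibitor (median −0.18), where 24.9% of all genes fell and 26.4% rose, with CCNE1 at −0.81, UHRF1 at −0.38 and MCM4 at −0.39. UNG at −0.69 fell more than all of these 24 but CCNE1. It was picked with that fall known, so its rank is a description and no evidence of a fall beyond that list.

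Other deaminases did not share the rise of APOBEC3B. Of 12 listed genes 7 were tested, and with the inhibitor ADAT2, a transfer RNA deaminase subunit (−0.38 ± 0.09), and DCTD, the dCMP deaminase (−0.19 ± 0.07), fell and none rose. ADAR, the interferon-responsive RNA editor, had −0.09 (adjusted p = 0.147). Interferon factors and effectors, the class of genes to which several APOBEC3 genes belong in other cells, rose in 6 of 15 and fell in 4 with the inhibitor, with a median of −0.01, where 51.3% of all genes were called. IFIT3 rose by 1.86, MX1 by 0.69 and IRF1 by 0.76, while ISG15 fell by 0.44. The log2 fold changes of that list ran from −0.51 to 2.50. With the combination against the inhibitor 4 of 15 rose, MX2 (0.72), STAT2 (0.34), IRF7 (0.34) and OAS1 (0.30), and none fell, with a median of 0.20, where 4.51% of all genes rose.

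**Figure D5:**
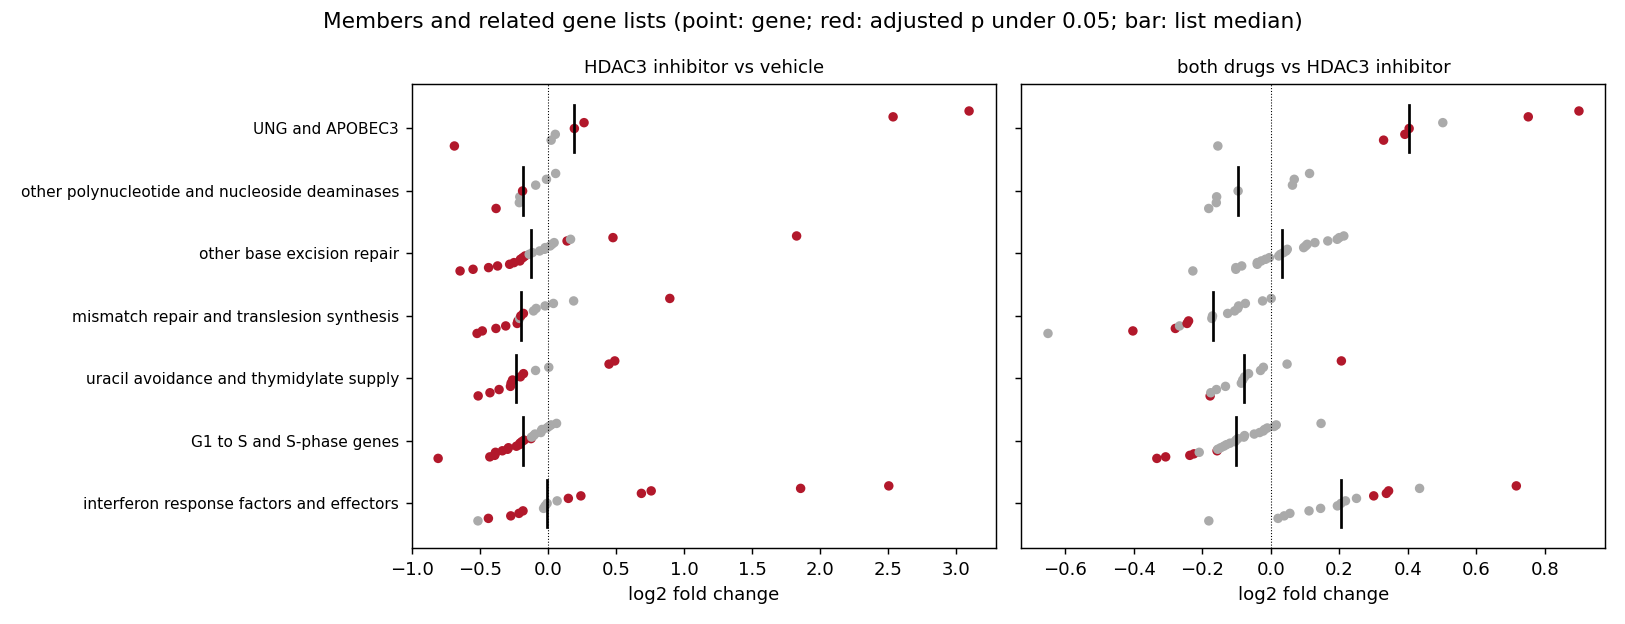
Log2 fold change (horizontal axis, own scale per panel) of each tested gene of the members and of 6 related lists, for the inhibitor against vehicle and the combination against the inhibitor; red points were called and the bar is the list's median. APOBEC3B lies beyond every gene of the related lists in the first panel, and UNG, picked with its fall known, lies at the low end beside CCNE1. APOBEC3H (2.54 ± 0.28 SE) lies close to the highest gene of the interferon list (2.50).

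Several APOBEC3 genes are known to be expressed in T cells, NK cells and monocytes, so markers of these cells were set beside them. The 8 T and NK cell markers summed to 245 to 262 CPM in the combination, 244 to 252 CPM in the inhibitor, 105 to 120 CPM in 5-azacitidine and 86.3 to 98.0 CPM in vehicle, most of it TRAC, which had 240 CPM with the inhibitor and 88.7 CPM with vehicle. All 5 tested members of that list rose with the inhibitor, CD3E by 2.66 (6.49 against 1.03 CPM), while CD2 and GNLY were at 0 in the inhibitor, 5-azacitidine and vehicle groups. The 8 monocyte and granulocyte markers summed to 4.63 to 4.99 CPM in the combination, 3.16 to 3.72 CPM in the inhibitor, 1.44 to 1.86 CPM in 5-azacitidine and 0.875 to 2.21 CPM in vehicle, with S100A8 and ELANE at 0 in all 4 groups, S100A9 at 0 in the inhibitor, 5-azacitidine and vehicle groups, and MPO at 0 in the combination, 5-azacitidine and vehicle groups. Their part in the APOBEC3 rises was not tested.

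The genes whose level over the 12 libraries was most like that of UNG were KANK1 (Pearson r = 0.993), HELQ (0.993) and TTF2 (0.992), out of 9453 genes of at least 5 CPM. For APOBEC3G, the APOBEC3 gene of highest mean CPM, they were RAP1GAP2 (r = 0.979), RAB24 (0.965) and ENSG00000291174 (0.946). These are descriptions over 12 libraries that share 4 treatment groups, so the group differences carry most of each correlation.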

How the data were processed

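Poly(A) RNA of 12 OCI-Ly7 libraries was sequenced. Upstream tools were cutadapt 5.1 and STAR 2.7.11b, with bcl2fastq 2.17.1.14 and FastQC 12.1, on GRCh38, per the submitters' processing notes. Per the file headers, the authors deposited estimated counts per gene from featureCounts 2.1.1 (Ensembl release 114), with read pairs, no strand, multi-mapping reads split into fractions and reads over more than 1 gene left out, and 96.9% of values were whole (tolerance 1e-06). The read length is not given in the sources used here. Of 16 libraries in the header's command, 4 are not analysed here.

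Counts were rounded and fitted in edgeR 4.0.16 (R 4.3.3) with TMM factors, filterByExpr (17869 genes, 99.9% of counts) and the quasi-likelihood test, 1 mean per group over all 12 libraries, two-sided, with Benjamini-Hochberg adjustment. SE is the log2 fold change divided by the square root of F. The biological coefficient of variation was 6.05%. DESeq2 1.42.0 was an alternative, with other scalings, filters, replicate blocks and each library left out. The fits were tested on simulated data. Intervals are 95%.

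The members and lists were chosen with earlier results of these data known. Named are all members, the 3 genes of smallest adjusted p per list with the inhibitor, tested genes within 150 kb, and the 3 genes most like UNG and APOBEC3G; further list genes were named after their values were seen.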

Additional observations from a re-analysis of the deposited data

How the results depend on the processing

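Of 504 values with 1 library left out, 476 kept their direction and side of the threshold, 19 lost a call, 4 gained one and 5 changed sign; of 443 under other settings the numbers were 433, 3, 6 and 1. With no filter on low counts the share of genes called was 24.2% for the inhibitor, 4.15% for 5-azacitidine and 28.02% for the combination against vehicle, 25.98% for the combination against 5-azacitidine and 3.47% against the inhibitor, where many more low genes enter the adjustment. With a filter of 5 CPM it was 15.9% for 5-azacitidine, 12.8% for the combination against the inhibitor and 1.96% for the interaction, and DESeq2 gave 2.12% for the interaction. Without both libraries of highest mitochondrial share, 5-azacitidine called 1 member. With 1 library left out the inhibitor called 3 to 5 members, 5-azacitidine 1 to 3 and the combination against the inhibitor 4 to 7. The share called then ran from 5.51 to 10.8% for 5-azacitidine, 3.75 to 10.1% for the combination against the inhibitor and 0.19 to 3.75% for the interaction, the highest without combination replicate 2. Signs changed only in values that were not called: APOBEC3D ran from −0.034 (without vehicle replicate 3) to 0.098 for the inhibitor and from −0.036 (without 5-azacitidine replicate 1, and −0.036 without both libraries) to 0.19 for 5-azacitidine. The interaction ran from −0.33 to 0.073 (without 5-azacitidine replicate 3) for APOBEC3B and from −0.41 to 0.044 (without 5-azacitidine replicate 1, and 0.017 without combination replicate 1) for APOBEC3H. The causes were not tested. Samples of the same number did not deviate together (correlations of −0.06 to 0.07 by title number and −0.03 to 0.07 by library number), so the numbers were not taken as pairs. With the replicate block by title number APOBEC3C lost its call for 5-azacitidine (0.27, adjusted p = 0.0651), and with that by library number 1.27% of genes were called for the interaction. Low counts limit APOBEC3A, APOBEC3D and APOBEC3H most.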
